A study of Drosophila melanogaster with 6 samples.

Results

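The piRNA pathway was followed through 34 genes, chosen by their symbols, out of 17559 genes counted in each of 6 ovary libraries of Drosophila melanogaster. All 34 had a row in the count tables, and all 34 passed the filter on low counts that left 8110 genes for testing. The mutant ovaries came from flies of genotype RanBP9D1/BSC469 (3 libraries). The control ovaries came from flies of genotype w1118/BSC469 (3 libraries), so BSC469, by the form of its name a deficiency chromosome, was carried by both groups. RanBP9 is a synonym of Ipo9, the gene of Importin-9, an import receptor for actin. The series asks what a lower level of nuclear actin does to transcription. All flies were kept at 25 °C, and polyadenylated RNA of whole dissected ovaries was sequenced, so germline cells, follicle cells and the muscle sheath are mixed in every library. Nothing in the labels states that replicates are separate crosses or dissections, and p-values here measure the spread between these libraries.

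piRNAs are small RNAs that guide PIWI proteins to transposon transcripts, and the pathway is known for protecting the genome of the fly ovary. In germline cells, Rhino and its partners make precursor RNAs from piRNA clusters, and Aubergine and Argonaute3 amplify piRNAs by cutting sense and antisense RNA in turn, the ping-pong cycle, in the perinuclear nuage. In follicle cells, which lack ping-pong, the protein of fs(1)Yb gathers precursors for cutting at the mitochondrial surface and loading into Piwi, which silences targets in the nucleus. By this background the 34 genes were divided into a germline branch (14 genes), a follicle branch (fs(1)Yb alone), genes that serve both branches (16) and general mRNA export genes that the germline branch also uses (3).

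The libraries held 21583524 to 26483578 counted reads, and the members' counts ran from 75 to 11828 in a library. Levels are given as CPM, counts scaled by each library's total and its TMM factor. Ipo9, the mutated gene, was at 98.2, 91.0 and 92.0 CPM in mutant replicates 1 to 3, against 118, 155 and 116 CPM in control replicates 1 to 3. No mutant library reached the lowest control, and control replicate 2 stood above the other controls. The fold change of Ipo9 missed the threshold (log2 fold change −0.47, SE 0.12, edgeR adjusted p = 0.0544). It passed on leaving out control replicate 2 (edgeR adjusted p = 0.00551) and by DESeq2 (adjusted p = 7.0e-05). On the second principal component of all tested genes mutant replicate 2 stood apart, at −26.1 against 0.690 to 10.8 in the other 5 libraries.

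Changes in the pathway were small and ran both ways. In mutant ovaries 7 of the 34 genes were higher (20.6%, against 8.31% of all genes tested) and 3 were lower (8.82%, against 6.2% of all genes tested). Together the 10 are 29.4% of the members, against 14.5% of all genes tested that passed in either direction. The 34 genes were chosen with earlier results of these data known, so these shares are a description with no test. Of the 34 members, 26 had a control level above the median of all genes tested. The part of expression level in the shares here and in the next paragraph was not tested. A gene was called at an adjusted p under 0.05 (quasi-likelihood test of edgeR, Benjamini-Hochberg adjustment over all 8110 genes). The 7 higher were fs(1)Yb, squ, BoYb, papi, Hen1, aub and del, and the 3 lower were SoYb, nxf2 and vas. The median log2 fold change over the 34 was 0.024, beside −0.0033 over all genes tested. Among the called genes the median size of the change was 1.18-fold for the members, beside 1.22-fold over all. None of the 34 changed by 2-fold, and fs(1)Yb alone by more than 1.5-fold.

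The groups did not overlap in 17 of the 34 genes (50%, against 34.9% of all genes tested). Mutant libraries lay above the controls in 11 of them (18.4% of all genes tested did so) and below in 6 (16.5% of all genes tested). These 17 are the 10 called genes and krimp, cuff, mino, arx, moon, tej and rhi. Leaving out single libraries changed the count of calls. On leaving out mutant replicate 1, 4 members were higher (11.8%, against 5.27% of all genes tested) and 2 lower (5.88%, against 4.18%). After leaving out mutant replicate 2, 3 members were higher (8.82%, against 4.82% of all genes) and 0 lower (0%, against 4.18%). On leaving out mutant replicate 3, 7 members were higher (20.6%, against 10.5% of all genes) and 3 lower (8.82%, against 7.46%). After leaving out control replicate 1, 3 members were higher (8.82%, against 3.88% of all genes) and 0 lower (0%, against 3%). On leaving out control replicate 2, 4 members were higher (11.8%, against 5.4% of all genes) and 1 lower (2.94%, against 4.22%). After leaving out control replicate 3, 2 members were higher (5.88%, against 5.43% of all genes) and 1 lower (2.94%, against 3.98%). Without control replicate 3 the share of members higher was close to that of all genes. The share lower was below that of all genes without mutant replicate 2 or without control replicate 1, 2 or 3.

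**Figure D1:**
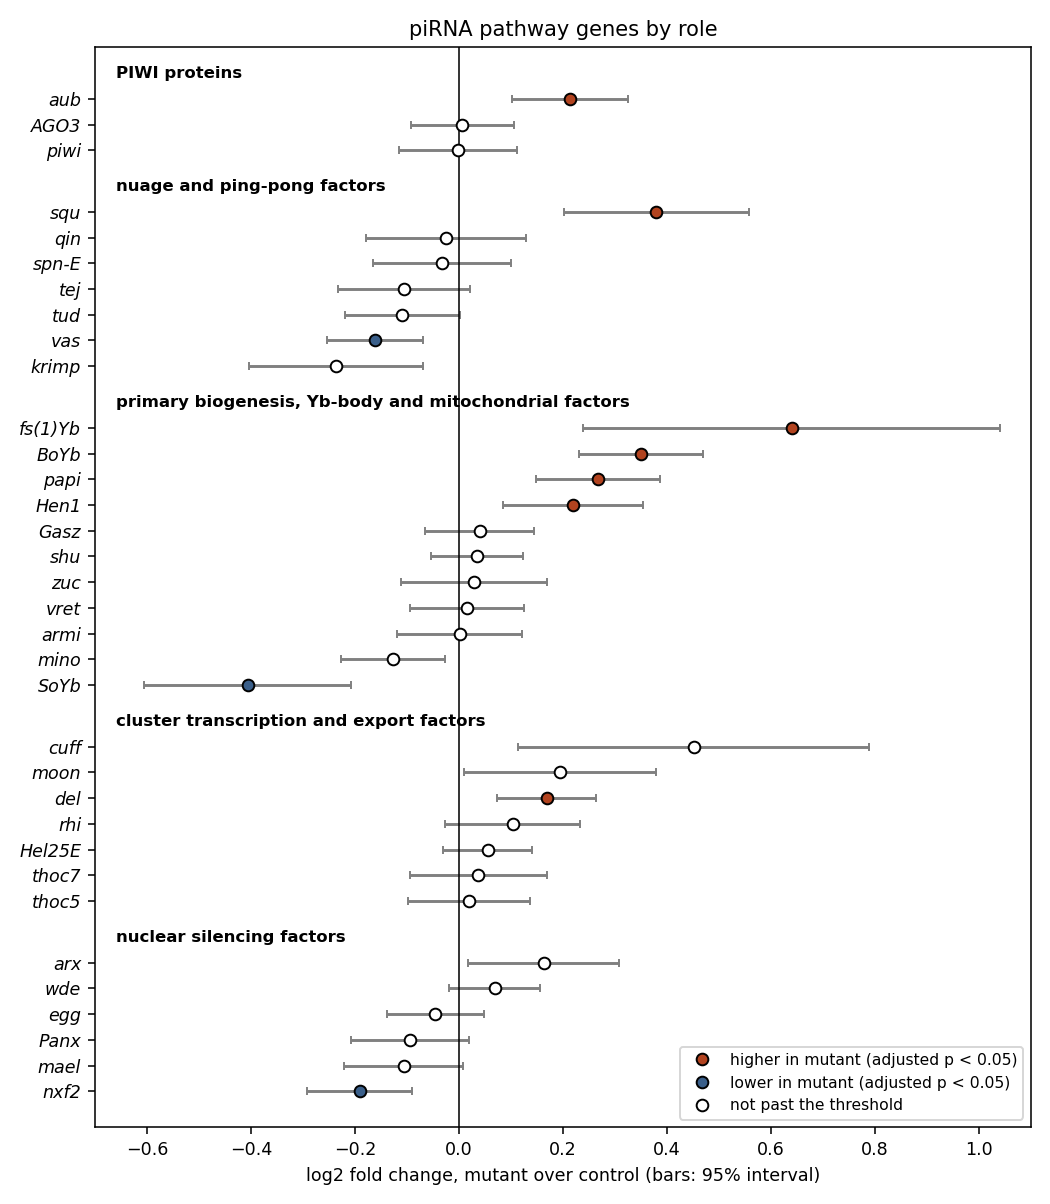
Log2 fold change, mutant over control, of each of the 34 piRNA pathway genes, grouped by role; bars are 95% intervals of the edgeR fit over 3 mutant and 3 control libraries, and filled points passed an adjusted p of 0.05. The 10 called genes lie on both sides of 0 and come from every role, with fs(1)Yb at the far right and SoYb at the far left.

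Levels within the pathway were compared as CPM per kb of exon. Hel25E, the general export helicase that germline clusters also use, stood at 177 ± 4.78 CPM per kb in mutant ovaries and 169.9 ± 2.27 CPM per kb in control ovaries (SD, n = 3 each). vas, the gene of the DEAD-box helicase that organises the nuage, stood at 169 ± 5.16 CPM per kb in mutant ovaries and 189 ± 5.24 CPM per kb in control ovaries. It ranked below Hel25E in mutant ovaries, where the ranges of both genes overlapped, and above it in control ovaries, where they did not. Reads of solo, annotated over exons of vas on the same strand without a row of its own, may be mixed into the vas level. del came next at 85.8 ± 1.95 CPM per kb in mutant ovaries and 76.3 ± 3.13 CPM per kb in control ovaries. Of the PIWI genes, AGO3 (rank 5 in mutant, 4 in control) and piwi (rank 6 in mutant, 5 in control) stood above aub (rank 11 in mutant, 14 in control). At the low end, the ping-pong gene qin stood at 8.58 ± 0.817 CPM per kb in mutant ovaries and 8.73 ± 0.285 CPM per kb in control ovaries. The cluster gene cuff stood at 6.56 ± 0.905 CPM per kb in mutant ovaries and 4.79 ± 0.654 CPM per kb in control ovaries, and fs(1)Yb was lowest at 1.46 ± 0.240 CPM per kb in mutant ovaries and 0.937 ± 0.0468 CPM per kb in control ovaries. In the mutant libraries each of these 3 was separate from the gene ranked above it, while from armi down to shu each gene overlapped the one above it.

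**Figure D2:**
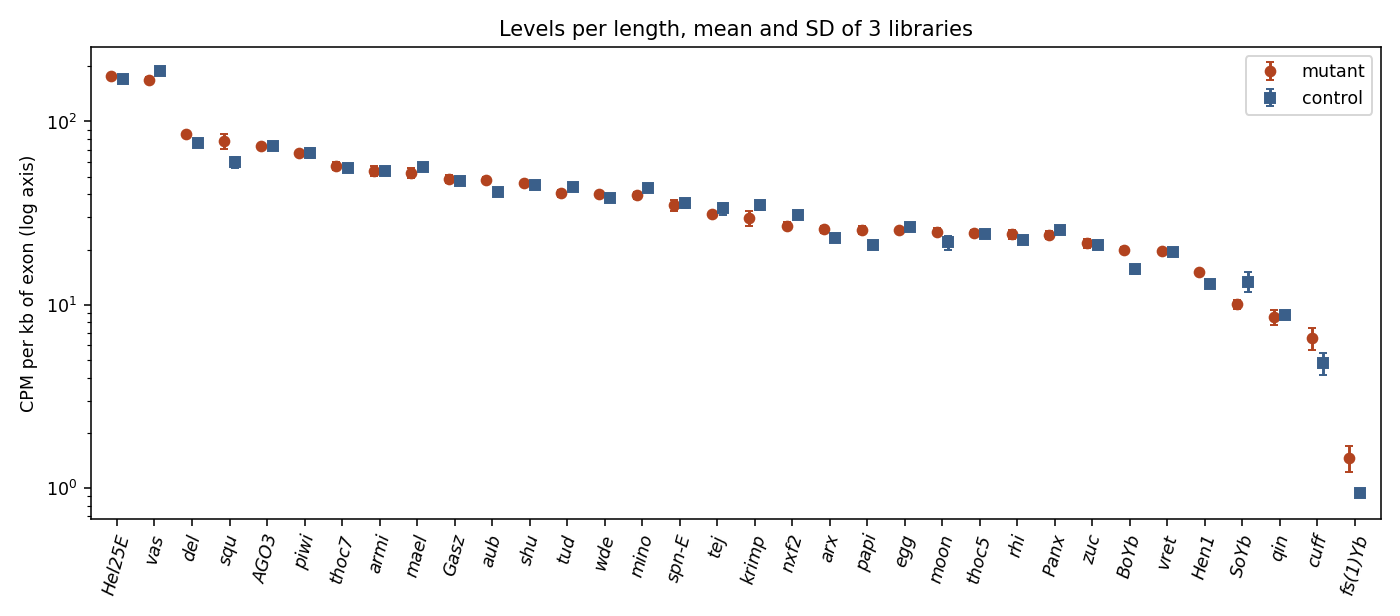
Level of each piRNA pathway gene as CPM per kb of exon on a log axis, ordered by the mutant mean; circles are mutant and squares control ovaries, with the SD of 3 libraries. Hel25E and vas lead in both groups, though the vas level may hold reads of solo, and cuff and fs(1)Yb are the lowest in both.

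Among the PIWI genes aub rose. Its product Aubergine is the germline PIWI protein that carries mostly antisense piRNAs and cuts transposon mRNA. aub was at 149.9, 146 and 138 CPM in mutant replicates 1 to 3, against 121, 132 and 122 CPM in control replicates 1 to 3. All mutant libraries lay above all control libraries (log2 fold change 0.21, SE 0.050, edgeR adjusted p = 0.0191, 95% interval 0.10 to 0.32). The call ended on leaving out mutant replicate 1 (edgeR adjusted p = 0.0696), mutant replicate 2 (0.0546), control replicate 1 (0.0922) or control replicate 3 (0.0711). AGO3, the ping-pong partner of aub, was at 238, 238 and 227 CPM in mutant replicates 1 to 3, against 224, 245 and 231 CPM in control replicates 1 to 3. Its groups overlapped and it did not pass (log2 fold change 0.0061, 95% interval −0.093 to 0.11, edgeR adjusted p = 0.943). piwi, the gene of the nuclear PIWI protein of germline and follicle cells, was at 208, 211 and 202 CPM in mutant replicates 1 to 3, against 194, 222 and 206 CPM in control replicates 1 to 3. It overlapped too and did not pass (log2 fold change −0.0019, 95% interval −0.12 to 0.11, edgeR adjusted p = 0.986). In the BDGP6 (dm6) build aub lies at 10997819 to 11001476 on 2L and piwi beside it at 10982205 to 10987420 on 2L, both on the reverse strand.

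Ratios between genes within a library need no scaling between libraries. Per kb of exon, aub over AGO3 was 0.664, 0.646 and 0.642 in mutant replicates 1 to 3, against 0.567, 0.569 and 0.555 in control replicates 1 to 3. The ratio of aub to piwi was 0.735, 0.705 and 0.699 in mutant replicates 1 to 3, against 0.634, 0.608 and 0.602 in control replicates 1 to 3. In both ratios every mutant library exceeded every control library. AGO3 over piwi was 1.11, 1.09 and 1.09 in mutant replicates 1 to 3, against 1.12, 1.07 and 1.08 in control replicates 1 to 3, with the groups interleaved. These pairs were chosen after their values were seen, so the ratios are a description with no test.

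**Figure D3:**
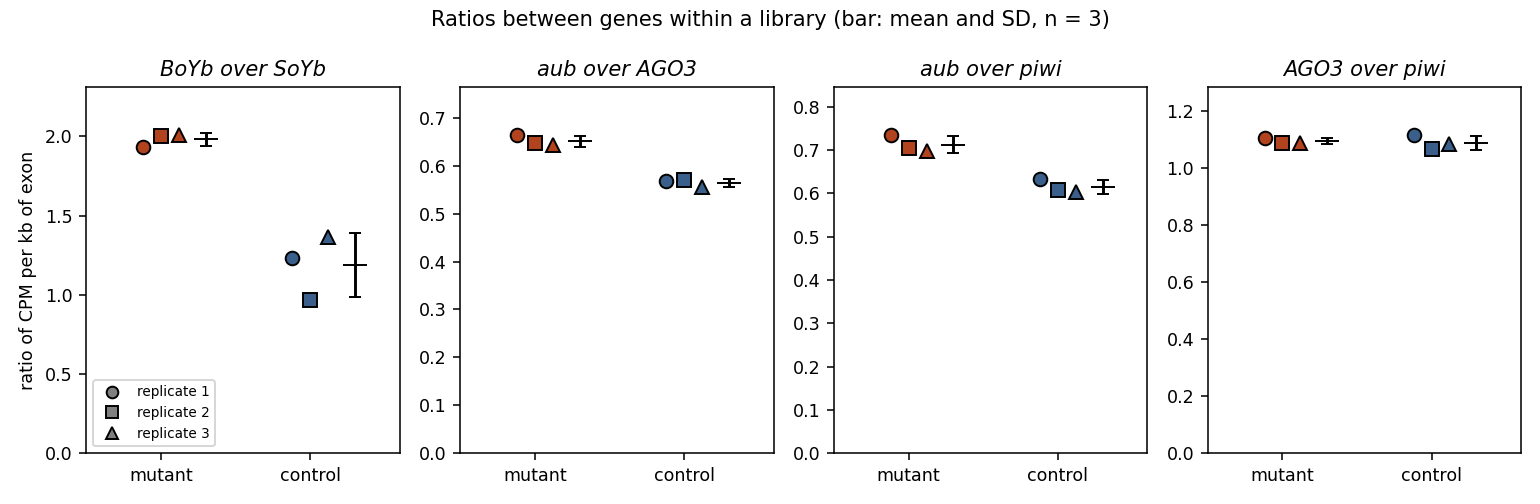
Ratios of CPM per kb of exon between gene pairs within each library; symbols mark the replicate number, and bars the mean and SD of 3 mutant and 3 control libraries. BoYb over SoYb, aub over AGO3 and aub over piwi are higher in every mutant library, and AGO3 over piwi is interleaved.

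Of the 7 nuage and ping-pong genes, 1 was higher and 1 lower, beside 8.31% and 6.2% of all genes tested. Their median log2 fold change was −0.11. squ, whose product Squash binds Aubergine in the nuage, lies at 16680054 to 16681653 on 2L and was at 119, 106 and 97.6 CPM in mutant replicates 1 to 3, against 88.6, 77.2 and 81.6 CPM in control replicates 1 to 3. Every mutant library was higher (log2 fold change 0.38, SE 0.078, edgeR adjusted p = 0.0149). The gene shares 223 of its 1372 exon bases with grp on the same strand, so its counts are uncertain. Its call ended on leaving out control replicate 2 (edgeR adjusted p = 0.0567) or control replicate 3 (0.0684). vas lies at 15061656 to 15074383 on 2L and was at 372, 393 and 392 CPM in mutant replicates 1 to 3, against 445, 426 and 423 CPM in control replicates 1 to 3. All mutant libraries were lower, by a small margin (log2 fold change −0.16, SE 0.041, edgeR adjusted p = 0.0292). solo, which the reference annotates over exons of vas on the same strand, has no row in these tables, so reads of both genes may be mixed. The call of vas ended on leaving out mutant replicate 1 (edgeR adjusted p = 0.11), mutant replicate 2 (0.057), control replicate 1 (0.137), control replicate 2 (0.0578) or control replicate 3 (0.0524), and when libraries were scaled on germline markers (0.0962).

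krimp encodes the Tudor scaffold that brings Aubergine and Argonaute3 together. It was at 77.4, 67.4 and 81.5 CPM in mutant replicates 1 to 3, against 89.4, 94.0 and 83.3 CPM in control replicates 1 to 3, with the groups apart but short of the threshold (log2 fold change −0.24, SE 0.073, edgeR adjusted p = 0.0638). It passed on leaving out mutant replicate 3 (edgeR adjusted p = 0.0178) and by DESeq2 (adjusted p = 0.0264). The Tudor domain genes tud and tej had log2 fold changes of −0.11 and −0.11, and the helicase gene spn-E one of −0.033. qin, whose product keeps ping-pong between unlike PIWI partners, had −0.025. None of these 4 passed (edgeR adjusted p of 0.177 to 0.845).

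Of the 11 biogenesis genes, 4 were higher and 1 lower, beside 8.31% and 6.2% of all genes tested. Among them the 3 Yb paralogs, helicase and Tudor domain proteins of piRNA biogenesis, each passed, beside 14.5% of all genes tested. The paralogs were not set as a group beforehand, so that count is a description with no test. They did not move in the same direction. BoYb, the germline paralog (22901912 to 22905470 on 3L), was at 73.8, 68.8 and 70.2 CPM in mutant replicates 1 to 3, against 56.6, 52.3 and 58.2 CPM in control replicates 1 to 3. The groups were apart (log2 fold change 0.35, SE 0.053, edgeR adjusted p = 0.0026, 95% interval 0.23 to 0.47), and BoYb passed in each of the 15 alternatives. SoYb, which serves both branches (9996706 to 10002736 on 2L), was at 52.7, 47.4 and 48.2 CPM in mutant replicates 1 to 3, against 63.4, 74.6 and 58.8 CPM in control replicates 1 to 3. All mutant libraries were lower, and control replicate 2 was the highest (log2 fold change −0.41, SE 0.087, edgeR adjusted p = 0.0174). SoYb shares 247 of its 4909 exon bases with CG31875 on the same strand. CG31875 was higher in mutant ovaries, with 543, 477 and 477 counts in mutant replicates 1 to 3, against 356, 301 and 287 counts in control replicates 1 to 3, and its part in the SoYb value was not tested. The call of SoYb ended on leaving out mutant replicate 2 (edgeR adjusted p = 0.0652), mutant replicate 3 (0.0552) or control replicate 1 (0.0563).

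fs(1)Yb is the follicle paralog, also known from the somatic niche of the germline stem cells (2720468 to 2724158 on X). It was at 6.02, 4.92 and 4.37 CPM in mutant replicates 1 to 3, against 3.12, 3.45 and 3.28 CPM in control replicates 1 to 3. These levels rest on 98 to 154 counts in the mutant libraries and 75 to 83 counts in the control libraries, the fewest of any member. The groups were apart, and mutant replicate 1 was the highest (log2 fold change 0.64, SE 0.18, edgeR adjusted p = 0.0406, 95% interval 0.24 to 1.04). The call ended on leaving out mutant replicate 1 (edgeR adjusted p = 0.151), mutant replicate 2 (0.0812), control replicate 1 (0.136), control replicate 2 (0.0831) or control replicate 3 (0.104), and with no filter beyond 1 count (0.054).

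BoYb and SoYb, a pair chosen because one was called higher and the other lower, are given as a ratio that describes those calls and is not tested. Per kb of exon, BoYb over SoYb was 1.93, 2.00 and 2.01 in mutant replicates 1 to 3, against 1.23, 0.966 and 1.36 in control replicates 1 to 3. It averaged 1.98 ± 0.0416 in mutant ovaries, against 1.19 ± 0.203 in control ovaries (SD, n = 3 each). BoYb was the more abundant in every library but control replicate 2.

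**Figure D4:**
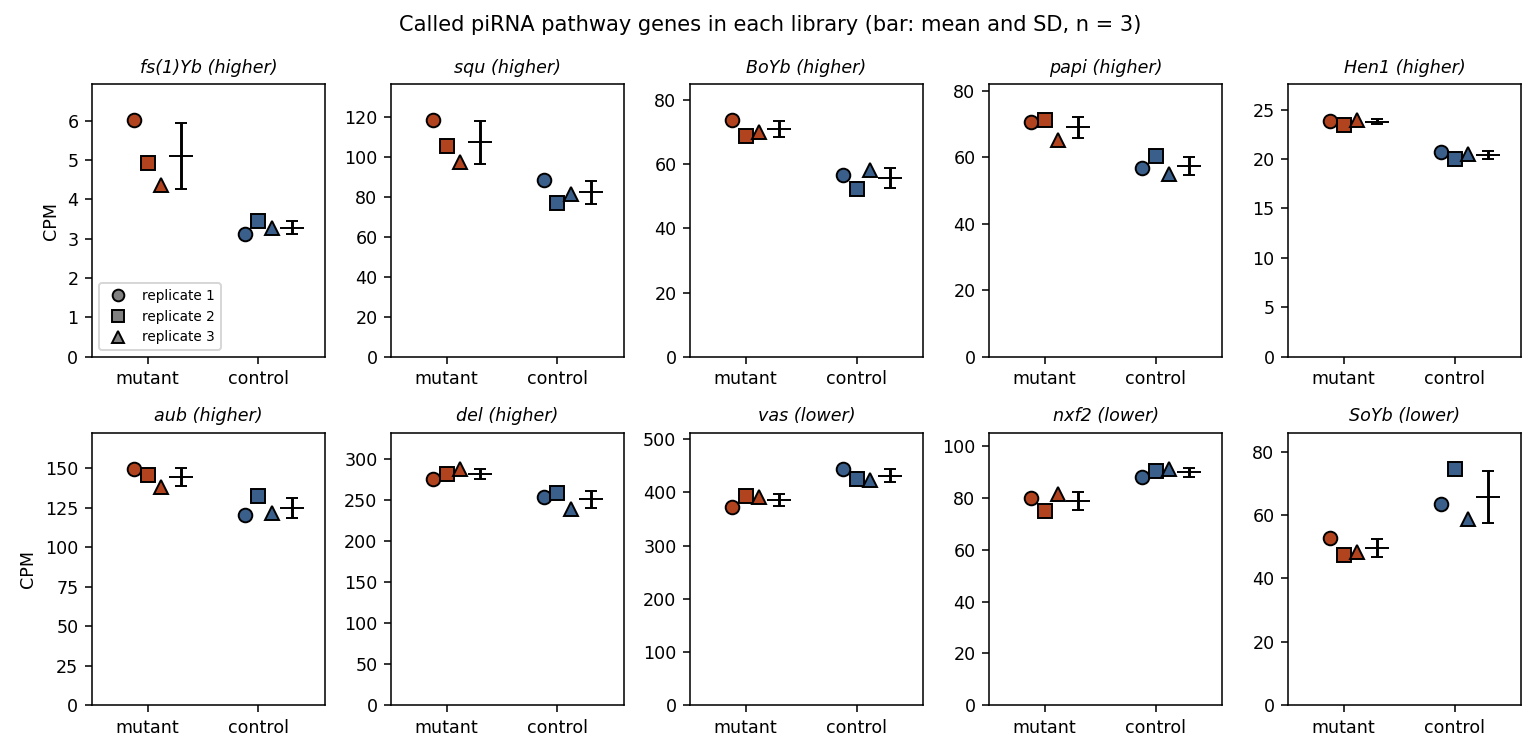
CPM of the 10 called piRNA pathway genes in each library, mutant left of control, with axes from 0; symbols mark the replicate number, and bars the mean and SD of 3 libraries. Mutant and control points do not overlap in any of the 10 panels.

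Of the other 8 biogenesis genes, 2 were higher, beside 8.31% of all genes tested, and 6 did not pass. papi, the gene of a Tudor protein of the mitochondrial surface that binds PIWI proteins, lies at 2220748 to 2225544 on 2L and was at 70.5, 71.2 and 65.3 CPM in mutant replicates 1 to 3, against 56.9, 60.3 and 54.9 CPM in control replicates 1 to 3. Every mutant library was higher (log2 fold change 0.27, SE 0.053, edgeR adjusted p = 0.00997). papi passed in each of the 15 alternatives, with an adjusted p of at most 0.0465. Hen1 encodes the methyltransferase that protects the ends of mature piRNAs (12145710 to 12152752 on 2R). It was at 23.8, 23.5 and 24.0 CPM in mutant replicates 1 to 3, against 20.7, 20.0 and 20.5 CPM in control replicates 1 to 3, with little spread within either group (log2 fold change 0.22, SE 0.060, edgeR adjusted p = 0.0363). Its call ended on leaving out mutant replicate 1 (edgeR adjusted p = 0.0948), mutant replicate 2 (0.0944), control replicate 1 (0.107), control replicate 2 (0.0898) or control replicate 3 (0.0849). DESeq2 (0.125) and no filter beyond 1 count (0.0539) ended it as well.

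mino, the gene of an acyltransferase of the mitochondrial outer membrane, was at 156 ± 6.81 CPM in mutant ovaries, against 170.3 ± 4.95 CPM in control ovaries (SD, n = 3 each). Its groups did not overlap, but it did not pass (log2 fold change −0.13, SE 0.045, edgeR adjusted p = 0.0888). The endonuclease gene zuc and the helicase gene armi had log2 fold changes of 0.030 and 0.0012. The mitochondrial scaffold gene Gasz, the Tudor gene vret and the cochaperone gene shu had 0.040, 0.016 and 0.035. All 5 had overlapping groups and edgeR adjusted p of 0.607 to 0.992, and their 95% intervals lay within −0.12 to 0.17. CG46463, which the reference annotates over exons of armi on the same strand, has no row of its own, so the armi value is uncertain.

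Of the 7 genes for cluster transcription and export, 1 was higher and 0 were lower in edgeR's test, beside 8.31% and 6.2% of all genes tested. Their log2 fold changes were 0.019 to 0.45. At an unadjusted p under 0.05, 3 were higher (del, cuff and moon) and 0 lower, and DESeq2 called del alone. Of all 8110 genes tested, 1273 were higher and 1083 lower at that unadjusted cut. del encodes Deadlock, which ties Rhino to its partners at dual-strand clusters (21145137 to 21148546 on 2L). It was at 276, 282 and 289 CPM in mutant replicates 1 to 3, against 255, 259 and 239.6 CPM in control replicates 1 to 3. Mutant libraries were all higher, by 12.4% on average (log2 fold change 0.17, SE 0.043, edgeR adjusted p = 0.0272). Its exons share 10 bases with pths on the opposite strand, a gene that was also higher. The call ended on leaving out mutant replicate 2 (edgeR adjusted p = 0.0708), control replicate 1 (0.0816) or control replicate 3 (0.083). rhi, the gene of the heterochromatin protein Rhino that marks these clusters, was at 37.1, 40.7 and 36.6 CPM in mutant replicates 1 to 3, against 34.7, 36.4 and 35.5 CPM in control replicates 1 to 3. Its groups were apart by a narrow margin and it did not pass (log2 fold change 0.10, SE 0.058, edgeR adjusted p = 0.278).

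moon encodes a paralog of a general initiation factor that starts transcription at clusters. It was at 20.3 ± 0.889 CPM in mutant ovaries, against 17.7 ± 1.59 CPM in control ovaries (SD, n = 3 each) and did not pass (log2 fold change 0.19, SE 0.083, edgeR adjusted p = 0.152). cuff, whose product keeps cluster transcripts from ending early, was at 9.73, 7.40 and 8.34 CPM in mutant replicates 1 to 3, against 7.11, 5.43 and 6.09 CPM in control replicates 1 to 3. Every mutant library lay above the controls, without passing (log2 fold change 0.45, SE 0.15, edgeR adjusted p = 0.0755). The export genes Hel25E, thoc7 and thoc5 had log2 fold changes of 0.055, 0.037 and 0.019, with overlapping groups. The value of thoc5 turned to −0.011 on leaving out control replicate 1 and to −0.010 on leaving out mutant replicate 3.

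Of the 6 nuclear silencing genes, which act with Piwi on chromatin, 1 was lower and 0 were higher in edgeR's test. Of all genes tested 6.2% were lower and 8.31% higher. At an unadjusted p under 0.05, 1 was higher (arx) and 1 lower (nxf2), and DESeq2 called 0 higher and 1 lower. Of all 8110 genes tested, 1273 were higher and 1083 lower at that unadjusted cut. nxf2, the gene of an mRNA export receptor paralog that joins Panoramix in silencing (16576859 to 16580306 on 3L), was at 79.9, 74.8 and 81.4 CPM in mutant replicates 1 to 3, against 87.9, 90.3 and 91.3 CPM in control replicates 1 to 3. Every mutant library was lower (log2 fold change −0.19, SE 0.045, edgeR adjusted p = 0.0207). Its call ended on leaving out mutant replicate 2 (edgeR adjusted p = 0.0766), control replicate 1 (0.0561), control replicate 2 (0.0558) or control replicate 3 (0.068). Panx, the gene of Panoramix, was at 47.9 ± 2.43 CPM in mutant ovaries, against 51.1 ± 0.461 CPM in control ovaries (SD, n = 3 each) and did not pass (log2 fold change −0.094, 95% interval −0.21 to 0.020, edgeR adjusted p = 0.259). arx, the gene of the Piwi partner Asterix, was at 22.4, 22.3 and 24.2 CPM in mutant replicates 1 to 3, against 20.3, 20.5 and 20.7 CPM in control replicates 1 to 3. The groups were apart, short of the threshold (log2 fold change 0.16, SE 0.065, edgeR adjusted p = 0.126). mael, a silencing gene downstream of Piwi, the histone methyltransferase gene egg and its cofactor gene wde had log2 fold changes of −0.11, −0.045 and 0.069, with overlapping groups (edgeR adjusted p = 0.205, 0.526 and 0.287).

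By branch, 4 of 14 germline genes were higher and 1 lower, beside 8.31% and 6.2% of all genes tested, with a median log2 fold change of 0.055. That median was 0.032 on leaving out control replicate 1 and 0.093 on leaving out mutant replicate 3. Of the 16 genes of both branches 2 were higher and 2 lower, with a median of 0.0086. The sign of that median turned on leaving out control replicates 1 or 3 or mutant replicates 1 or 2 (lowest −0.014). None of the 3 export genes passed in edgeR (median 0.037; 0 at an unadjusted p under 0.05, and 0 by DESeq2). Relative to the control mean, the germline branch median was 0.067, 0.076 and 0.042 in mutant replicates 1 to 3 on the log2 scale. It was −0.012, 0.049 and −0.020 in control replicates 1 to 3, so mutant replicate 3 lay below control replicate 2. Among germline markers outside the pathway 1 of 21 was higher (grk) and 2 were lower (mtrm and bam), with a median of −0.025. At an unadjusted p under 0.05, 2 were higher and 4 lower, and DESeq2 called 0 higher and 4 lower. Of all 8110 genes tested, 1273 were higher and 1083 lower at that unadjusted cut. The germline markers summed to 13094 to 13673 CPM in mutant libraries and 13522 to 13689 CPM in control libraries. Of the markers not tested, cup was listed at 0 in all 6 libraries and BicC at 0 or 1 count. Both share exon bases with another gene on the same strand, so their counts are uncertain and do not show that either gene is silent.

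Somatic markers varied more between libraries, and fewer cells of a type and less RNA per cell cannot be told apart in bulk samples. Follicle cell markers summed to 221 to 340.1 CPM in mutant libraries and 239 to 259.7 CPM in control libraries. Of 12 tested, 0 passed in edgeR (1 in each direction at an unadjusted p under 0.05, and 0 higher and 1 lower by DESeq2). At that unadjusted cut 1273 of all 8110 genes tested were higher and 1083 lower. Relative to the control mean the follicle cell markers stood, by median, at 0.40, 0.22 and −0.21 for mutant replicates 1 to 3, against −0.015, 0.039 and 0.037 for control replicates 1 to 3. Single markers ran both ways: 9 of the 12 tested had a log2 fold change above 0 and 3 below, from −0.72 (lov) to 1.09 (cas). fs(1)Yb was highest in mutant replicate 1 and lowest in mutant replicate 3, as the marker median was, and lay above all controls in each mutant library. Eggshell genes of late follicle cells had 0 of 12 higher and 7 lower, beside 8.31% and 6.2% of all genes tested. They summed to 23277 to 26559 CPM in mutant libraries and 28943 to 38652 CPM in control libraries. Muscle markers, with 0 of 11 past the threshold in edgeR (0 at an unadjusted p under 0.05, and 0 by DESeq2), summed to 143 to 272 CPM in mutant libraries and 129.6 to 226 CPM in control libraries. The hemocyte markers NimC1, eater and He, the fat body marker Fbp1 and the neuron marker Syt1 had 0 to 2 counts in a library. The 6 hemocyte markers, mostly srp, summed to 84.4 to 116 CPM in mutant libraries and 104 to 116 CPM in control libraries. The 4 fat body markers summed to 11.5 to 21.3 and 20.3 to 41.6 CPM, and the 4 neuron markers to 3.08 to 4.93 and 2.44 to 3.26 CPM, in mutant and control libraries. The part of cell composition in the fold changes of fs(1)Yb and the other members was not tested.

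**Figure D5:**
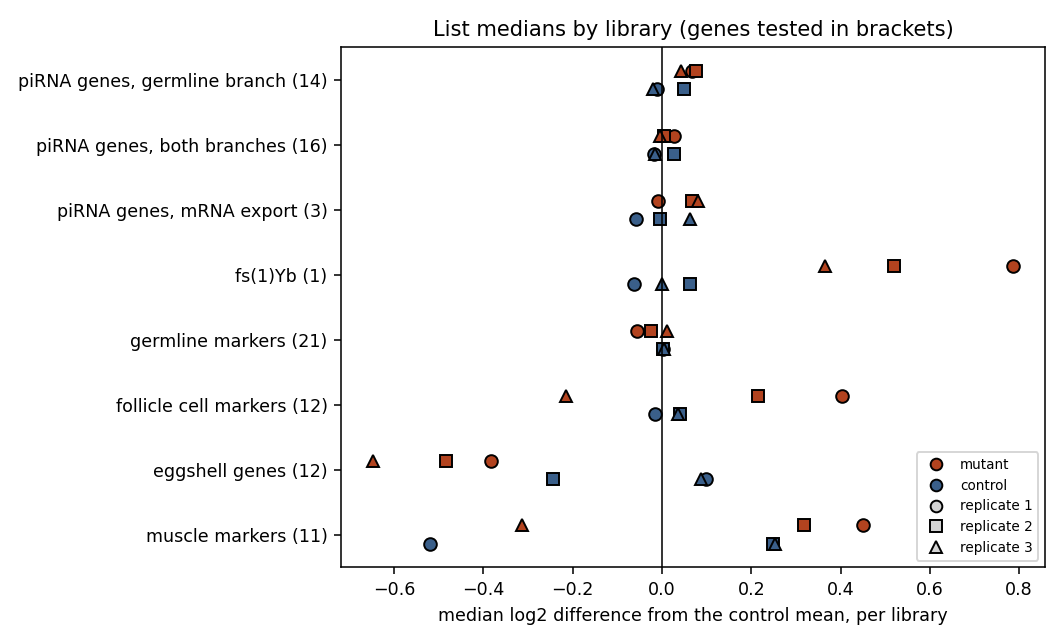
Median log2 difference from the control mean over the tested genes of each list, 1 point per library, mutant above control in each row; symbols mark the replicate number. The 3 rows of piRNA pathway branches with more than 1 gene and the row of germline markers stay within 0.1 of 0, fs(1)Yb lies at 0.37 to 0.79 in mutant libraries, and the follicle cell, eggshell and muscle rows spread more widely.

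In a list of 28 other genes of the pathway, 2 were higher and 1 lower, shares no larger than the 8.31% and 6.2% of all genes tested, and the median log2 fold change was −0.024. Hsp83, the gene of the chaperone that helps load PIWI proteins, was at 5331, 5411 and 5198 CPM in mutant replicates 1 to 3, against 3961, 3943 and 4129.9 CPM in control replicates 1 to 3. The groups were far apart (log2 fold change 0.41, SE 0.041, edgeR adjusted p = 2.7e-04), and it passed in each of the 15 alternatives. Stip1, the gene of the cochaperone Hop, was at 534 ± 4.04 CPM in mutant ovaries, against 469 ± 18.7 CPM in control ovaries (SD, n = 3 each) and higher (log2 fold change 0.19, SE 0.041, edgeR adjusted p = 0.0149). Its call ended on leaving out control replicate 1 (edgeR adjusted p = 0.0848). G9a, a histone methyltransferase gene, was at 469 ± 9.68 CPM in mutant ovaries, against 533 ± 27.7 CPM in control ovaries (SD, n = 3 each) and lower (log2 fold change −0.19, SE 0.046, edgeR adjusted p = 0.0255). It no longer passed on leaving out mutant replicate 1 (edgeR adjusted p = 0.0929), mutant replicate 2 (0.0631), control replicate 1 (0.0944) or control replicate 2 (0.0789), or with scaling on germline markers (0.0743). tj, the gene of the transcription factor that drives piwi in follicle cells, was at 159.8, 154 and 106 CPM in mutant replicates 1 to 3, against 115, 123 and 116 CPM in control replicates 1 to 3. Mutant replicate 3 lay below the controls and the other mutant libraries above them (log2 fold change 0.25, SE 0.17, edgeR adjusted p = 0.406).

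In the siRNA and miRNA pathways 1 of 10 genes was higher and 1 lower, beside 8.31% and 6.2% of all genes tested. The median log2 fold change of the 10 was −0.028. AGO2, the Argonaute gene of the siRNA pathway, was at 214, 188 and 202 CPM in mutant replicates 1 to 3, against 243, 231 and 245 CPM in control replicates 1 to 3. It was lower in every mutant library (log2 fold change −0.25, SE 0.051, edgeR adjusted p = 0.0116), and the call ended on leaving out control replicate 1 (edgeR adjusted p = 0.0524). r2d2, whose product helps load AGO2 with siRNAs, was at 60.3 ± 1.83 CPM in mutant ovaries, against 53.9 ± 1.66 CPM in control ovaries (SD, n = 3 each) and higher (log2 fold change 0.16, SE 0.047, edgeR adjusted p = 0.0472). Its call ended on leaving out mutant replicate 1 (edgeR adjusted p = 0.0806), mutant replicate 2 (0.16), control replicate 1 (0.153), control replicate 2 (0.0585) or control replicate 3 (0.128). Relative log expression factors (0.0521), no composition factor (0.0637) and DESeq2 (0.106) ended it as well.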

How the data were processed

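The authors deposited raw counts of reads for each gene, in a separate table for each library. TopHat2, HTSeq and DESeq2 and the builds dm6 and BDGP6 are named in the submitters' processing notes, with no roles; the sources used here give no version, annotation or strand setting. The library kit is directional, per the labels' protocols, and 13 members share exon bases with a gene on the opposite strand. Symbols and exon lengths (union of exons) came from the Ensembl annotation of BDGP6, by gene ID for 17253 genes. Another 209 genes, vas included, were matched through their coordinates (90% overlap both ways).

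Mutant was tested against control in edgeR 4.0.16 (R 4.3.3) with filterByExpr at a minimum count of 10 (9449 genes not tested), TMM factors and a robust quasi-likelihood fit without covariates. The standard error is the size of the log2 fold change over the square root of F. The alternatives used other scalings (relative log expression, none, TMM on germline markers), other filters, DESeq2 1.42.0, limma-voom (limma 3.58.1), a replicate block, and single libraries left out. The code was tested on simulated counts. By rule the text names Ipo9, every called member, the PIWI genes, vas, rhi, fs(1)Yb, the uncalled members of largest change, and called genes of the 2 comparison lists; other names were chosen after their values were seen. Members and lists were chosen with earlier results of these data known. Of 112 entries in the other lists 111 matched a gene; boot did not.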

Additional observations from a re-analysis of the deposited data

How the results depend on the processing

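No called member turned sign in any of the 15 alternatives, and BoYb and papi passed in all 15. With another scaling (relative log expression factors or none), limma-voom, or a filter of 1 CPM in 3 libraries, 7 members were higher and 3 lower. Of all genes tested there 8.03% to 8.63% were higher and 5.59% to 6.59% lower. Scaling on germline markers gave 7 (20.6%, against 8.36% of all genes) and 2 (5.88%, against 3.98%). It gave a both-branch median of 0.034, against 0.0086. DESeq2 gave 6 (17.6%, against 8.14% of all genes) and 4 (11.8%, against 7.29%). No filter beyond 1 count gave 5 (14.7%, against 5.86% of all genes) and 3 (8.82%, against 4.4%), with fs(1)Yb at 0.64 (edgeR adjusted p = 0.054). Deviations of same-numbered libraries from their group mean correlated at −0.23, −0.26 and −0.12, and no library correlated best with its own number. With 3 libraries in a group these correlations depend on each other, so they cannot exclude that replicate numbers pair the libraries. With a replicate block 4 members were higher (11.8%, against 5.15% of all genes) and 2 lower (5.88%, against 3.82%). There fs(1)Yb stood at 0.63 (edgeR adjusted p = 0.103), and del (0.0674), vas (0.08) and Hen1 (0.088) did not pass either. G9a (0.0632) and r2d2 (0.081) of the other lists also did not pass there. No other member, and neither Hsp83, Stip1 nor AGO2, changed its call, and calls over all genes numbered 418 higher and 310 lower, against 674 and 503. Single libraries left out gave 2 to 7 members higher, 0 to 3 lower, a germline branch median of 0.032 to 0.093, a both-branch median of −0.014 to 0.040 and fs(1)Yb at 0.50 to 0.74. They gave 1 to 3 other pathway genes higher, 0 to 2 lower, and 0 to 2 siRNA and miRNA genes called. Without both replicates numbered 2, chosen after seeing the data, 3 members were higher (8.82%, against 2.97% of all genes) and 0 lower (0%, against 3.33%). In that setting fs(1)Yb stood at 0.70, and 1 other pathway gene was higher and 0 lower. 1 siRNA or miRNA gene was called there, and 1 also with DESeq2, the block, relative log expression factors or no composition factor, against 2. Other pathway genes lower numbered 0 with germline marker scaling or the block and 2 with DESeq2, against 1. The causes of these differences between settings, the number of libraries included, were not tested. The largest standard errors of the members were those of fs(1)Yb and cuff, at 0.18 and 0.15, against a median of 0.053. These genes also had the lowest counts, and the parts of depth and of spread between libraries were not separated.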

Other observations

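Genes next to the 10 called members were read by a rule chosen after values had been seen: the nearest 2 tested genes on each side that end before, or start after, the member's midpoint. Of these 40 neighbours 8 passed the threshold (20%, against 14.5% of all genes tested), and 5 of the 8 moved in the direction of their member. slif, an amino acid transporter gene 8090 bases from BoYb, had a log2 fold change of 0.81 (SE 0.042, edgeR adjusted p = 7.4e-06), beside 0.35 for BoYb. CG11131, closer to BoYb at 1649 bases, was under 1 CPM in every library and did not pass (−0.76, edgeR adjusted p = 0.17). bib, 1167 bases from SoYb, had −1.07 (SE 0.25, edgeR adjusted p = 0.021), at a low mean level of 2.25 CPM in mutant and 4.74 CPM in control ovaries. pths, whose exons overlap those of del by 10 bases on the opposite strand, had 0.31 (SE 0.044, edgeR adjusted p = 0.00182). RpL9, 1281 bases from aub, had 0.21 (SE 0.045, edgeR adjusted p = 0.0139). vilya, 2519 bases from fs(1)Yb, had 1.09 (SE 0.31, edgeR adjusted p = 0.0424), at a low mean level of 1.26 CPM in mutant and 0.585 CPM in control ovaries. Dap160, RpL13 and CG2694 passed in the direction opposite to their members del, SoYb and fs(1)Yb.

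By chromosome arm, 4 of 9 members on 2L were higher and 2 lower, where 14.8% of all tested genes passed in either direction. On 2R 1 of 12 was higher (14.9% of all passed), on 3L 1 of 7 was higher and 1 lower (15.9%), and on X 1 of 2 was higher (12.2%). On 3R, the arm of Ipo9, where 14.5% of all passed, 0 of 4 did so in edgeR or DESeq2 (1, mino, at an unadjusted p under 0.05). Over all 8110 genes tested, 1273 were higher and 1083 lower at that unadjusted cut. The member nearest to Ipo9 (spn-E) lies 4.42 Mb from it. The flamenco cluster, the main piRNA source of follicle cells, has a row as lncRNA:flam. It had 14, 12 and 12 counts in mutant replicates 1 to 3, against 20, 10 and 19 counts in control replicates 1 to 3 (log2 fold change −0.31, SE 0.34, edgeR adjusted p = 0.593). The 14 rows of the Stellate genes, a known piRNA target in testes, summed to 0 counts in each mutant library and to 0, 0 and 1 count in control replicates 1 to 3. Stellate copies are nearly identical, so these counts are uncertain. Transposon transcripts were not analysed here.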
